A study of Mus musculus with 20 samples.

Results

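The lactate dehydrogenase genes and the genes of lactate transport across the plasma membrane were described in 3T3-L1 adipocytes, 6 of the 48440 genes in the deposited expression table. The members were chosen by function: the dehydrogenase subunits Ldha and Ldhb, the monocarboxylate carriers Slc16a1, Slc16a3 and Slc16a7, and Bsg, the chaperone of Slc16a1 and Slc16a3. 3T3-L1 is a mouse preadipocyte line of Swiss mouse origin that turns into fat cells in culture. All 20 RNA-seq libraries came from cells differentiated with troglitazone (10 µM), insulin (5 µg/ml), dexamethasone (1 µM) and isobutyl methylxanthine (0.5 mM). On day 4 the medium was changed to one with insulin alone, and on day 6 to growth medium. The 4 Foxk1 groups had 3 libraries each: a construct labelled FOXK1 overexpression with its empty vector control, and an shRNA against Foxk1 with its scrambled shRNA control. The 4 Foxk2 groups had 2 libraries each and the same layout for Foxk2. Each manipulated group had a control group of its own. The promoter that drives the constructs, and whether the cells were clones or pools, are not given in the sources used here, and neither is whether replicates were separate cultures. The p-values thus measure only the spread between these libraries, which may be technical.

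Lactate dehydrogenase converts pyruvate to lactate while it regenerates the NAD+ that glycolysis needs, and it runs in both directions. The enzyme is a tetramer of A subunits (Ldha), long associated with lactate formation, and B subunits (Ldhb), associated with lactate use. Lactate crosses the plasma membrane together with a proton through MCT1 (Slc16a1), MCT4 (Slc16a3) or MCT2 (Slc16a7), and MCT1 and MCT4 reach the membrane bound to basigin (Bsg); white fat cells release part of the glucose carbon they take up as lactate. Foxk1 and Foxk2 are closely related transcription factors of the forkhead family. Glucose use and lactate formation are the subject of the paper published on these libraries, so the direction of Ldha in any comparison is not independent evidence.

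Foxk1 itself was not higher in the libraries labelled Foxk1 overexpression: its mean was 6.10 RPKM (reads scaled to gene length and library size) against 7.55 in their control. Foxk1 fell from 8.32 to 3.25 RPKM in Foxk1 knockdown. Foxk2 rose from 13.4 to 19.96 RPKM in Foxk2 overexpression, and Foxk2 fell from 12.9 to 3.27 RPKM in Foxk2 knockdown. The other factor moved too: Foxk1 fell from 11.6 to 7.14 RPKM in Foxk2 overexpression, and rose from 10.2 to 12.7 RPKM in Foxk2 knockdown. Foxk2 rose from 11.3 to 13.9 RPKM in the libraries labelled Foxk1 overexpression and fell from 10.99 to 9.57 RPKM in Foxk1 knockdown. Depth was 16739763 to 20772823 reads in the Foxk1 libraries and 31378224 to 36157008 in the Foxk2 libraries. The first principal component (79.5% of the variance) parted these sets of libraries, controls included, so values set across the factors cross sets of unlike depth and size. The 10 adipocyte markers summed to 7379 to 13733 RPKM per library, and the sum was lower in each manipulated group than in its control, with no overlap. It was 13406 to 13733 RPKM in the control of the libraries labelled Foxk1 overexpression and 8813 to 8844 in those libraries, and 12460 to 13057 in the Foxk1 knockdown control and 10571 to 11149 in knockdown. It was 11776 to 11917 RPKM in the Foxk2 overexpression control and 7379 to 7389 in overexpression, and 12880 to 12972 in the Foxk2 knockdown control and 10910.1 to 11216 in knockdown. Of the 10 markers, 6, 7, 7 and 4 fell and 2, 0, 2 and 0 rose in that order (limma adjusted p under 0.05, as set out below). Of all tested genes, 23.8%, 15.5%, 22% and 15.7% fell and 24.1%, 20.4%, 23% and 18% rose. The 4 of 10 in Foxk2 knockdown lay near the 33.7% of all tested genes called there in either direction. Macrophage markers summed to at most 2.34 RPKM and skeletal muscle markers to at most 4.19. Fibroblast and preadipocyte markers (10 genes, among them Dcn, Col1a1 and Pdgfra) moved with every comparison. Their sum was 657 to 802 RPKM in the control of the libraries labelled Foxk1 overexpression and 253 to 266 in those libraries, and 1241 to 1326 in the Foxk1 knockdown control and 2244 to 2351 in the knockdown. It was 522 to 533 RPKM in the Foxk2 overexpression control and 231 to 244 in the overexpression, and 355 to 356 in the Foxk2 knockdown control and 987 to 1024 in the knockdown. In both knockdowns 10 of 10 of these markers rose, beside 20.4% (Foxk1) and 18% (Foxk2) of all tested genes. In the libraries labelled Foxk1 overexpression, and in Foxk2 overexpression, 9 of 10 fell, beside 23.8% and 22% of all tested genes. The 5 brown fat markers (Ucp1 and Dio2 at or near 0, 3 tested) summed to 43.5 to 48.1 RPKM in the Foxk2 overexpression control and 200.3 to 221 in overexpression, and to 95.8 to 96.9 in the Foxk2 knockdown control and 37.4 to 48.7 in knockdown. In the Foxk1 libraries they summed to 181 to 199 and 201 to 214 RPKM in the overexpression control and the libraries labelled Foxk1 overexpression, and to 109 to 134 and 60.3 to 72.4 RPKM in the knockdown control and knockdown. The 4 markers of dividing cells summed to 3.52 to 3.85 RPKM in the control of the libraries labelled Foxk1 overexpression and 7.82 to 9.15 in those libraries, and to 1.60 to 1.99 and 3.36 to 3.41 RPKM in the Foxk2 overexpression control and overexpression. In the Foxk1 knockdown control and knockdown they summed to 6.66 to 6.95 and 6.80 to 8.55 RPKM, and in those of Foxk2 to 1.32 to 1.39 and 1.49 to 1.84 RPKM. The part of these markers in the results on the lactate genes was not tested. In bulk RNA, fewer cells of a type and less RNA per cell cannot be told apart.

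The promoters of 4 members are in the RefSeq promoter table (GRCm38.p6); those of Ldha, Ldhb and Slc16a1 are shown because Ldha and Slc16a1 moved together below while Ldhb did not follow them. Each sequence is the 250 bases before the annotated start, 5′ to 3′ on the gene's strand. Capitals mark matches on either strand to the hypoxia response core (ACGTG or GCGTG), the motif bound by hypoxia inducible factors, or to the E-box CACGTG, bound by Myc family factors. An E-box holds the core on both strands, so overlapping matches were merged into 1 site.
Ldha, chr7:46845554-46845803, plus strand: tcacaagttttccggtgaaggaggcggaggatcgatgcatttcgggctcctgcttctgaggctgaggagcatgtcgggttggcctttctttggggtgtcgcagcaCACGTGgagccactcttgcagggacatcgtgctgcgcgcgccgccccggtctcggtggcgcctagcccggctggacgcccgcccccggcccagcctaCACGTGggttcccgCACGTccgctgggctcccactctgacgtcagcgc
Ldhb, chr6:142507958-142508207, minus strand: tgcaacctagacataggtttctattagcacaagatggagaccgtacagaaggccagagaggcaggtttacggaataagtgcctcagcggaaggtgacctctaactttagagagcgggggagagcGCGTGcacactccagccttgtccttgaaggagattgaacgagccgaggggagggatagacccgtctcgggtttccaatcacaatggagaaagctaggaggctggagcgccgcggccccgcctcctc
Slc16a1, chr3:104638414-104638663, plus strand: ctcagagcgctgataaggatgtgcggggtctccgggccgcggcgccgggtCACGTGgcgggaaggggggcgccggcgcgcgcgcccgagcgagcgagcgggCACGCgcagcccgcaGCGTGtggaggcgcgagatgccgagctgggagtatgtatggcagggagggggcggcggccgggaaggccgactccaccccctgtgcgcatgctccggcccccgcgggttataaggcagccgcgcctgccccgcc

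The Ldha window held 3 core sites, 2 of them E-boxes, and the Slc16a1 window held 3 core sites, 1 of them an E-box. Among the 32851 promoters of the table, 4.65% held at least 3 core sites, 6.02% at least 1 E-box and 0.429% at least 2. The Ldhb window held 1 core site, as 38.6% of promoters held at least 1, and no E-box. A second Ldha start (window chr7:46846832-46847081) held 1 core site. The Slc16a3 window (chr11:120948817-120949066) held 2 core sites and no E-box; 13.5% of promoters held at least 2. The forkhead motif GTAAACA was in none of these 5 windows and in 3.17% of all promoters. GENCODE M21 places no exon in the 3 windows shown. G and C made up 67.2% of the Ldha window shown, 76.4% of that of Slc16a1 and 56.4% of that of Ldhb. The core and the E-box both hold CG, and the shares over all promoters are not matched for G and C. The part of base content in these site numbers was not tested. These matches describe letters in a window and are not measured binding.

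Differences are given as log2 fold changes on the log2(RPKM + 0.5) scale with the SE of the model, and a gene was said to rise or fall where the Benjamini-Hochberg adjusted p of limma over all 15981 tested genes was under 0.05. Slc16a7 could not be tested, and Slc16a3 passed the filter on low values (0.5 RPKM in at least 2 libraries) only through 6 libraries of 2 groups where it was high, those labelled Foxk1 overexpression and the Foxk1 knockdown control; both are left out of the counts that follow. In the libraries labelled Foxk1 overexpression, Ldha and Slc16a1 rose, Ldhb fell and Bsg did not pass: 3 of 4 members were called, beside 47.8% of all tested genes (24.1% higher and 23.8% lower). In Foxk1 knockdown, Ldha, Slc16a1 and Bsg fell and Ldhb rose, 4 of 4 beside 35.9% of all genes (20.4% higher and 15.5% lower). In Foxk2 overexpression Ldha, Ldhb, Slc16a1 and Bsg rose, beside 45% of all genes called (23% higher and 22% lower). In Foxk2 knockdown, Ldha, Slc16a1 and Bsg fell and Ldhb rose, 4 of 4 beside 33.7% of all genes (18% higher and 15.7% lower). The median log2 fold change of these 4 members was 0.44, -0.53, 0.99 and -0.44 in that order of comparisons, while the median over all tested genes lay between 0 and 0.017.

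**Figure D1:**
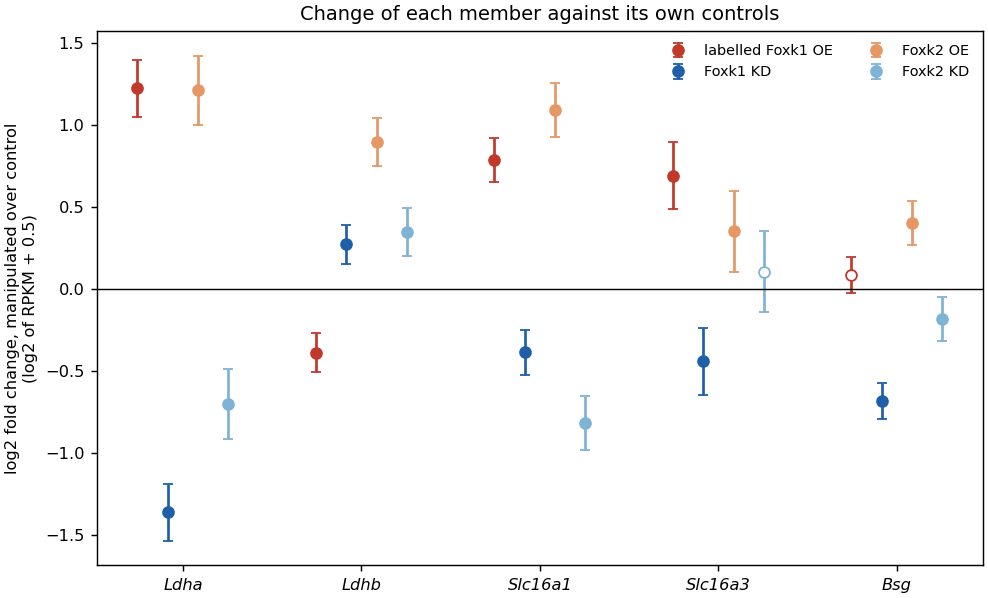
Log2 fold change (log2(RPKM + 0.5) scale) of the 5 tested members in each of the 4 comparisons, each manipulated group against its own control; points are the model's estimates bars their 95% confidence intervals, and open points differences that did not pass. The Slc16a3 values of the 2 Foxk1 comparisons are a description, since that gene passed the filter through their higher groups. Ldha and Slc16a1 lie above 0 in both groups labelled overexpression and below 0 in both knockdowns, while Ldhb lies below 0 only in the libraries labelled Foxk1 overexpression, by 0.39.

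Ldha (ENSMUSG00000063229.15, chr7:46841475-46855627, plus strand, mm10, 11 merged exons) encodes the A subunit. Its level was 235, 308 and 251 RPKM in the control of the libraries labelled Foxk1 overexpression and 596, 618 and 628 RPKM in those libraries. It was 224, 238 and 209 RPKM in the Foxk1 knockdown control and 83.3, 88.8 and 88.6 RPKM in the knockdown. No library of a manipulated group overlapped its control in either pair, as for 52.3% and 44.2% of all tested genes. The change on the log2 scale was 1.22 ± 0.081 (SE, adjusted p = 6.83e-09, means 265 ± 38.6 and 614 ± 16.0 RPKM, SD, n = 3 and 3) in the libraries labelled Foxk1 overexpression and -1.36 ± 0.081 (SE, adjusted p = 6.52e-09, means 224 ± 14.3 and 86.9 ± 3.14 RPKM, SD, n = 3 and 3) in Foxk1 knockdown. By size in either direction, 2.24% of tested genes changed at least as much in the libraries labelled Foxk1 overexpression, and 0.544% in Foxk1 knockdown. For the Ldha changes with Foxk2 this share was 2.41% in overexpression and 6.06% in knockdown.

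With Foxk2, Ldha was 154 and 174 RPKM in the overexpression control and 362 and 398 RPKM in overexpression. It was 224 and 240.2 RPKM in the knockdown control and 145 and 140.0 RPKM in knockdown. The groups again did not overlap, as for 70.3% and 67.2% of all tested genes with 2 libraries a group. These shares, and 52.3% and 44.2% for the Foxk1 pairs, stand beside every pair said below to be apart. Ldha rose by 1.21 ± 0.10 (SE, adjusted p = 9.46e-08) and fell by 0.70 ± 0.10 (SE, adjusted p = 5.23e-05) on the log2 scale. The rises in the 2 groups labelled overexpression differed by 0.013 (95% interval -0.26 to 0.29, adjusted p = 0.959), whereas the fall in Foxk1 knockdown exceeded that in Foxk2 knockdown by 0.66 ± 0.13 (SE, adjusted p = 0.00302 for the difference of effects). Such a difference of effects was called for 25.1% of all tested genes in overexpression (11.6% higher and 13.5% lower) and for 14.3% in knockdown (6.68% higher and 7.63% lower). Across the 8 groups the level of Ldha ranked, from low to high, Foxk1 knockdown, Foxk2 knockdown, the Foxk2 overexpression control, the Foxk1 knockdown control, the Foxk2 knockdown control, the control of the libraries labelled Foxk1 overexpression, Foxk2 overexpression and the libraries labelled Foxk1 overexpression. The ranges of the last 3 controls in that order overlapped from each to the next, and all other neighbours were apart.

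**Figure D2:**
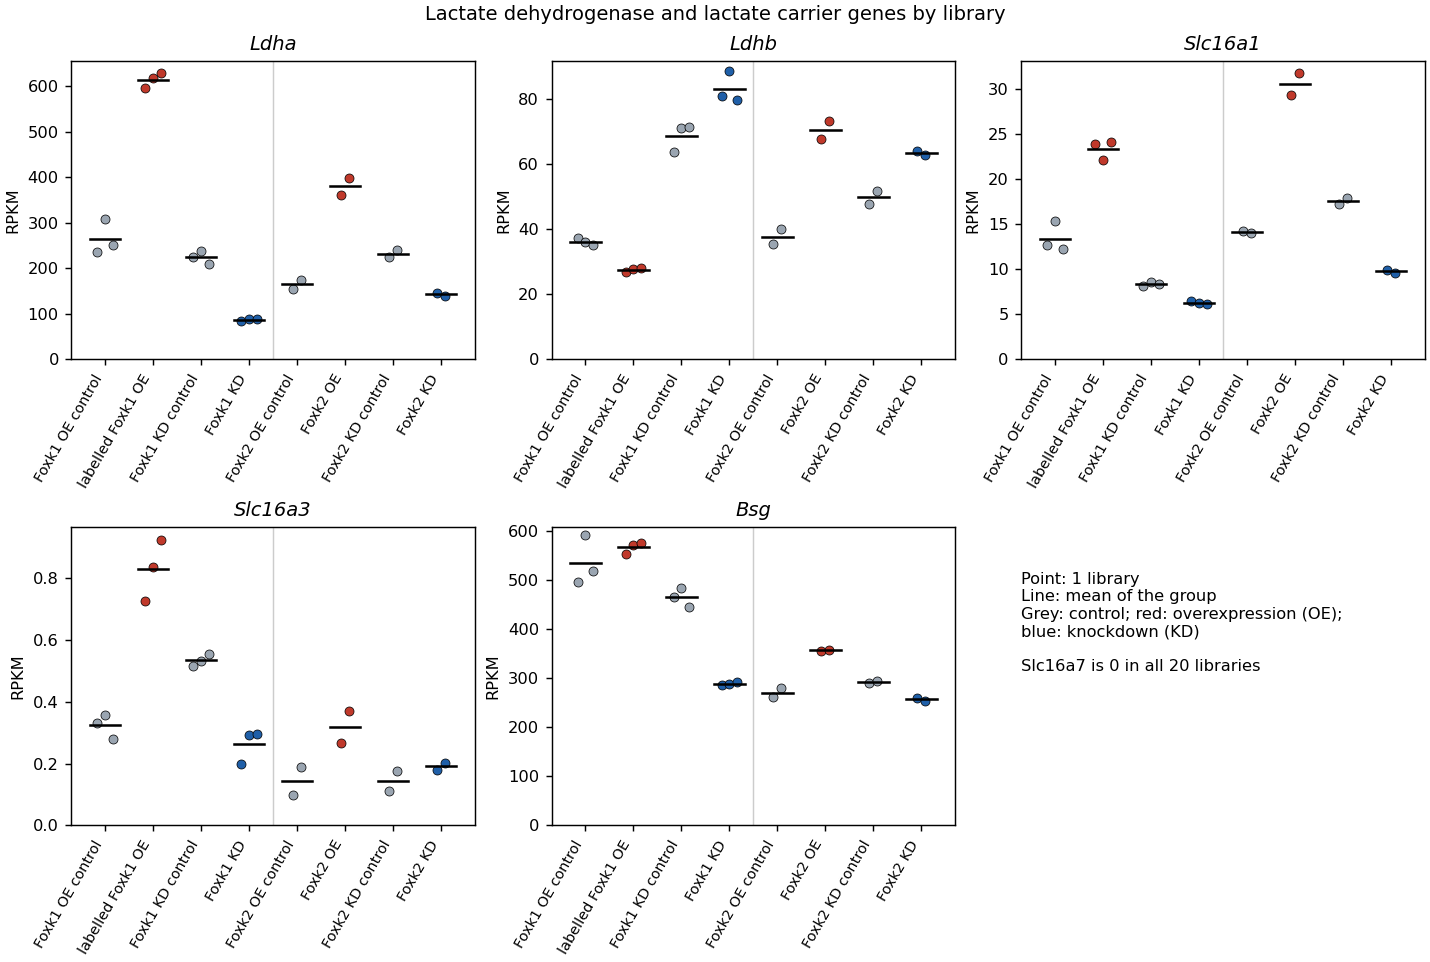
RPKM of each member in each of the 20 libraries by group, with 1 point per library and a line at the group mean; each panel has its own axis. Ldha spans 83.3 to 628 RPKM and Slc16a1 6.09 to 31.8, Slc16a3 stays under 1 RPKM, and Slc16a7 is at 0 in all 20 libraries.

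Ldhb (ENSMUSG00000030246.11, chr6:142490249-142507957, minus strand, 9 merged exons) encodes the B subunit. Its level was 37.2, 36.2 and 35.2 RPKM in the control of the libraries labelled Foxk1 overexpression and 26.9, 27.8 and 28.0 RPKM in those libraries. It was 63.8, 71.1 and 71.5 RPKM in the Foxk1 knockdown control and 80.9, 88.7 and 79.9 RPKM in knockdown. The groups were apart in both pairs, with Ldhb lower where Ldha was higher and the reverse. The log2 fold change was -0.39 ± 0.056 (SE, adjusted p = 3.15e-05) and 0.27 ± 0.056 (SE, adjusted p = 0.0012).

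In the Foxk2 libraries Ldhb was 35.5 and 40.0 RPKM in the overexpression control and 67.7 and 73.3 RPKM in overexpression, a rise of 0.89 ± 0.068 on the log2 scale (SE, adjusted p = 4.04e-08) in the same direction as Ldha. It was 47.9 and 51.7 RPKM in the knockdown control and 64.1 and 62.7 RPKM in knockdown, a rise of 0.35 ± 0.068 (SE, adjusted p = 0.00092) opposite to Ldha. The groups were apart in both pairs. Ldhb thus rose in 3 comparisons and fell in the libraries labelled Foxk1 overexpression. Of the tested genes, 2085 (13%) were called in all 4 comparisons in any directions, and 19 (0.119%) had these same 4 called directions. The pattern was taken from the calls of Ldhb itself, so its share is a description. Ldha and Slc16a1 were among the 723 genes (4.52%) that rose in both groups labelled overexpression and fell in both knockdowns. The effect on Ldhb in the libraries labelled Foxk1 overexpression differed from that in Foxk2 overexpression by -1.28 ± 0.088 (SE, adjusted p = 1.41e-07), and the effects in the 2 knockdowns differed by -0.074 (95% interval -0.26 to 0.11, adjusted p = 0.638).

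Because both subunits enter the same tetramer, their RPKM values were also set against each other. RPKM here divides by merged exon length, 3310 bases for Ldha and 1570 for Ldhb. Their longest coding transcripts have 1815 and 1304 bases, and measured by those Ldha is scaled down more than Ldhb. The size of each share and ratio below depends on the length used. The direction in which a share moves between groups does not. Ldhb made up 12.2 ± 1.58% of the summed level of Ldha and Ldhb (SD, n = 3) in the control of the libraries labelled Foxk1 overexpression and 4.29 ± 0.0248% in those libraries. It made up 23.5 ± 1.72% in the Foxk1 knockdown control and 48.9 ± 1.31% in knockdown (SD, n = 3). In that knockdown the ratio of Ldha to Ldhb in RPKM was 1.05 ± 0.0556 (SD, n = 3). Given the lengths, this is not read as equal numbers of the 2 transcripts. With Foxk2 the share of Ldhb was 18.7 ± 0.0399% in the overexpression control and 15.6 ± 0.165% in overexpression (SD, n = 2). It was 17.7 ± 0.0408% in the knockdown control and 30.8 ± 0.159% in knockdown (SD, n = 2). The ranges of each group and its control were apart in all 4 pairs. The summed level itself was 301 and 642 RPKM, and 293 and 170.1 RPKM, in control and manipulated libraries of the 2 Foxk1 comparisons, and 202 and 451, and 282 and 206 RPKM, in those of Foxk2. Transcript shares are not shares of protein, which was not analysed here.

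**Figure D3:**
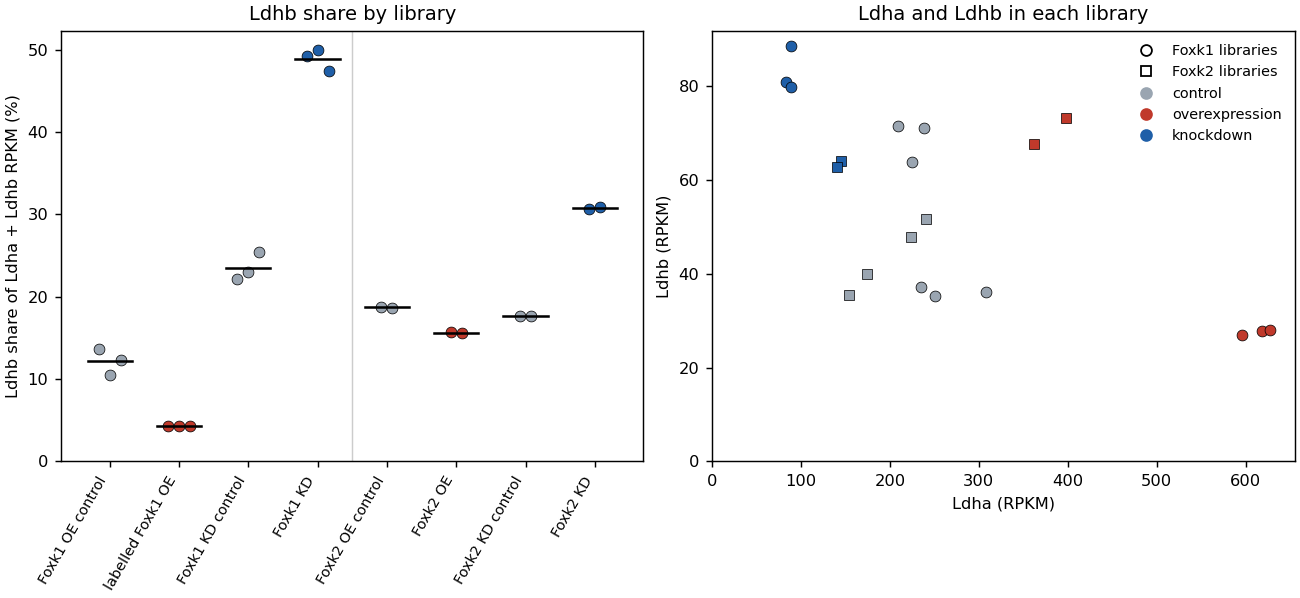
Left, share of Ldhb in the summed RPKM of Ldha and Ldhb (percent) by group, with 1 point per library and a line at the group mean; right, RPKM of Ldhb against that of Ldha in each library, with circles for Foxk1 and squares for Foxk2 libraries. The 3 Foxk1 knockdown libraries have the highest shares, 47.4 to 49.97%, and the 3 libraries labelled Foxk1 overexpression the lowest, 4.26 to 4.31%.

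Near-identical copies bear on how far these 2 levels can be read. No other GENCODE M21 gene matched a member at 99% identity over 100 bases or more. At 90% identity, 14 genes, among them Ldha-ps and Ldha-ps2, covered 55.1% of the longest Ldha transcript, and 1 gene, Gm5514, covered 76.8% of that of Ldhb at up to 98.0% identity. Values of 10 of the 14 Ldha copies were used; the other 4, among them Gm5452 and Gm9247, were not analysed here. Reads of these 10 made up 0.192 to 2.25% of the reads of Ldha and these copies, and those of Gm5514 made up 3.54 to 7.64% of the reads of Ldhb and Gm5514. Gm5514 rose by 1.02 ± 0.14 on the log2 scale (SE, adjusted p = 2.41e-05) in Foxk2 overexpression, beside the rise of Ldhb there, and did not pass in the other comparisons. With the reads of Gm5514 or of the 10 Ldha copies added, each call and direction of Ldha and Ldhb held.

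Slc16a1 (ENSMUSG00000032902.1, chr3:104638668-104658462, plus strand, 5 merged exons) encodes MCT1, the most widely expressed of these carriers. Its level was 12.7, 15.3 and 12.3 RPKM in the control of the libraries labelled Foxk1 overexpression and 23.9, 22.1 and 24.1 RPKM in those libraries (log2 fold change 0.79 ± 0.064, SE, adjusted p = 6.73e-08). It was 8.15, 8.57 and 8.40 RPKM in the Foxk1 knockdown control and 6.51, 6.28 and 6.09 RPKM in knockdown (-0.39 ± 0.064, SE, adjusted p = 0.0002). The groups were apart in both pairs. Slc16a1 was 14.2 and 14.0 RPKM in the Foxk2 overexpression control and 29.4 and 31.8 RPKM in overexpression (1.09 ± 0.078, SE, adjusted p = 2.08e-08). It was 17.2 and 17.9 RPKM in the Foxk2 knockdown control and 9.92 and 9.59 RPKM in knockdown (-0.82 ± 0.078, SE, adjusted p = 9.59e-07). These pairs were apart as well, and both effects were larger than in the Foxk1 pairs, unlike those of Ldha. The difference of effects was -0.30 ± 0.10 (SE, adjusted p = 0.0377) for overexpression and 0.43 ± 0.10 (SE, adjusted p = 0.00973) for knockdown. The first was lost without replicate 2 of the libraries labelled Foxk1 overexpression (adjusted p = 0.0839), without replicate 1 or 2 of the Foxk2 overexpression control (0.0786 and 0.106) or without replicate 2 of Foxk2 overexpression (0.161), and the second without replicate 2 of the Foxk2 knockdown control (0.0501). In order of level, Slc16a1 was lowest in Foxk1 knockdown (6.29 ± 0.211 RPKM, SD, n = 3) and highest in Foxk2 overexpression (30.6 ± 1.73 RPKM, SD, n = 2), and the only neighbouring groups whose ranges overlapped were the 2 overexpression controls.

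Slc16a3 (ENSMUSG00000025161.16, chr11:120948480-120960868, plus strand, 9 merged exons) encodes MCT4, the carrier associated with lactate export from glycolytic cells. It was close to the lower limit of these libraries, with 19 to 94 reads each. Its level was 0.33, 0.36 and 0.28 RPKM in the control of the libraries labelled Foxk1 overexpression and 0.72, 0.84 and 0.92 RPKM in those libraries (a difference of 0.69 ± 0.095 on the log2(RPKM + 0.5) scale, SE). It was 0.52, 0.53 and 0.56 RPKM in the Foxk1 knockdown control and 0.20, 0.29 and 0.30 RPKM in knockdown (a difference of -0.44 ± 0.095, SE). The groups were apart in both pairs. Since Slc16a3 passed the filter only through the higher group of each of these pairs, no call is read from that fit. With no filter beyond a value above 0, 30145 genes entered the fit, and the SE was 0.0805 in place of 0.095. The limma adjusted p was then 1.35e-05 and 0.00116. Because the SE itself shrank with the added genes of low level, no call is read from that fit either. In the Foxk2 libraries Slc16a3 was 0.10 and 0.19 RPKM in the overexpression control and 0.27 and 0.37 RPKM in overexpression (0.35 ± 0.12, SE, adjusted p = 0.0224). This call was lost without replicate 1 of the control (0.25, adjusted p = 0.183), without replicate 2 of overexpression (0.26, adjusted p = 0.181) and with the 2 groups fitted alone (adjusted p = 0.105). In Foxk2 knockdown the level was 0.11 and 0.18 RPKM in the control and 0.18 and 0.20 RPKM in knockdown, and the difference did not pass (0.11, 95% interval -0.14 to 0.35, adjusted p = 0.567). The difference between the effects in the libraries labelled Foxk1 overexpression and in Foxk2 overexpression did not pass (0.34, 95% interval 0.018 to 0.66, adjusted p = 0.114). The added 0.5 RPKM understates changes at such levels: on whole reads, voom gave log2 fold changes of 1.35, -1.04, 1.21 and 0.45 in the 4 comparisons, the last again short of the threshold (adjusted p = 0.284).

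Slc16a7 (ENSMUSG00000020102.15, chr10:125219270-125389465, minus strand, 13 merged exons), which encodes the high-affinity carrier MCT2, had 0 reads in all 20 libraries. A count of 0 allows up to 3 reads, which is 0.00701 to 0.0151 RPKM depending on the library. Such limits cover counting error only. Of its exon bases 1.51% are shared with a gene on the opposite strand; the exons of the other 5 members overlap no other gene.

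Bsg (ENSMUSG00000023175.15, chr10:79704491-79711969, plus strand, 7 merged exons), the chaperone basigin, was the most abundant carrier-side transcript, at 254 to 591 RPKM. In the control of the libraries labelled Foxk1 overexpression it was at 497, 591 and 519 RPKM and in those libraries at 553, 572 and 576 RPKM, with overlapping ranges. The difference of 0.086 ± 0.051 on the log2 scale (SE, 95% interval -0.023 to 0.19, adjusted p = 0.189) did not pass; it passed without replicate 2 of the control (0.16, adjusted p = 0.00442) and turned to -0.13 under quantile normalization (adjusted p = 0.0326). In Foxk1 knockdown Bsg fell by 0.68 ± 0.051 (SE, adjusted p = 6.22e-08), from 465, 484 and 446 RPKM in the control to 287, 288 and 293 RPKM. Bsg rose in Foxk2 overexpression from 261 and 280.2 RPKM to 355 and 358 RPKM (0.40 ± 0.063, SE, adjusted p = 7.85e-05). In Foxk2 knockdown it went from 290 and 295 RPKM to 260.0 and 254 RPKM (-0.19 ± 0.063, SE, adjusted p = 0.0319). These last 3 pairs were apart. The call in Foxk2 knockdown was lost when any of its 4 libraries was left out: adjusted p was 0.0823 and 0.145 without control replicates 1 and 2, and 0.0772 and 0.14 without knockdown replicates 1 and 2. It was also lost with no filter on low values (-0.19, adjusted p = 0.0698) and with mitochondrial genes left out of the scaling (-0.16, adjusted p = 0.0581). The ratio of Bsg to Slc16a1 in RPKM was 40.1 ± 2.02 in the control of the libraries labelled Foxk1 overexpression and 24.3 ± 1.41 in those libraries, and 55.5 ± 2.15 in the Foxk1 knockdown control and 45.996 ± 2.02 in knockdown (SD, n = 3). It was 19.2 ± 1.13 in the Foxk2 overexpression control and 11.7 ± 0.594 in overexpression, and 16.7 ± 0.207 in the Foxk2 knockdown control and 26.4 ± 0.219 in knockdown (SD, n = 2). The ratio was thus lower than in the control in 3 pairs and higher in Foxk2 knockdown, with no overlap in any pair. Of single tested genes, 52.3% and 44.2% were apart in the Foxk1 overexpression and knockdown pairs, and 70.3% and 67.2% in those of Foxk2.

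The members' likeness across the libraries was described by Pearson's r over the 20 libraries after the mean of each comparison's libraries was subtracted; the points share groups and controls, so r is given as a description. Ldha had an r of 0.89 with Slc16a1, 0.87 with Slc16a3 and 0.86 with Bsg, and -0.13 with Ldhb. Ldhb had an r of 0.045 with Slc16a1. Among 9356 genes, those most like Ldha were the glycolytic aldolase Aldoa (0.993), the pyruvate dehydrogenase kinase Pdk1 (0.991) and the phosphoglucomutase Pgm1 (0.991). For Slc16a1 they were Idh3a of the citric acid cycle (0.991), the mitochondrial pyruvate carrier subunit Mpc1 (0.986) and the triglyceride synthesis enzyme Dgat2 (0.984). For Bsg they were the prolyl hydroxylase Egln3 (0.964), Cyp2ab1 (0.956) and the sterol synthesis enzyme Nsdhl (0.946). The genes most like Slc16a3 were Sars, Ddit4 and Gys1 (0.944, 0.936 and 0.933), and those most like Ldhb were the sterol acyltransferase Soat1, Impad1 and Nktr (0.913, 0.902 and 0.884).

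Beyond the members, the gene lists around lactate are given beside the share of all tested genes called in the same comparison: 47.8% in the libraries labelled Foxk1 overexpression, 35.9% in Foxk1 knockdown, 45% in Foxk2 overexpression and 33.7% in Foxk2 knockdown. Of 17 tested genes of pyruvate supply and mitochondrial entry, 11 rose and 4 (Pdk2, Pdk3, Pdp1 and Pdpr) fell in the libraries labelled Foxk1 overexpression (median log2 fold change 0.34), and 1 rose and 12 fell in Foxk1 knockdown (median -0.24). In Foxk2 overexpression 12 rose and 5, those 4 and Pcx, fell (median 0.48), and in Foxk2 knockdown 1 rose and 12 fell (median -0.38). The shares called were 88.2%, 76.5%, 100% and 76.5%. Pdk1, which inhibits pyruvate dehydrogenase, moved with Ldha, by 1.16, -1.33, 1.31 and -0.88 in the order libraries labelled Foxk1 overexpression, Foxk1 knockdown, Foxk2 overexpression and Foxk2 knockdown. Pdp1, a phosphatase that reactivates pyruvate dehydrogenase, moved the other way in each, by -1.52, 1.15, -1.20 and 1.38; the 8 adjusted p values of the 2 genes in limma were at most 3.17e-07. In the 2 knockdowns, Pdp1 was the 1 gene of the list that rose. Mpc2, a subunit of the mitochondrial pyruvate carrier, rose by 0.99 ± 0.060 (SE, adjusted p = 3.7e-09) in Foxk2 overexpression, and Pdhb, a subunit of pyruvate dehydrogenase, fell by 0.70 ± 0.041 (SE, adjusted p = 5.47e-09) in Foxk2 knockdown.

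**Figure D4:**
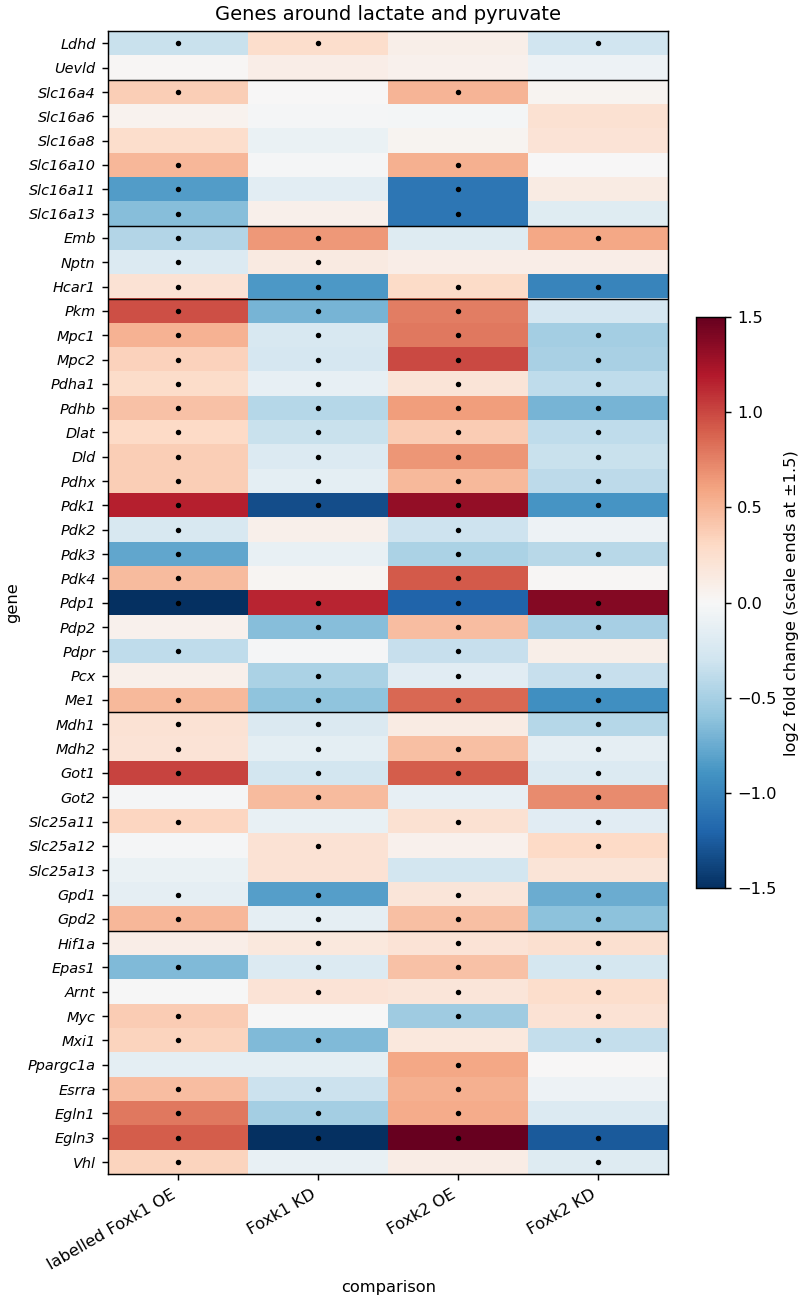
Log2 fold change (log2(RPKM + 0.5) scale) of the tested genes of the lists around lactate in the 4 comparisons, drawn as colour (red higher, blue lower, scale ending at 1.5 in size); dots mark an adjusted p under 0.05 and lines part the lists. Pdk1 is red in both groups labelled overexpression and blue in both knockdowns, and Pdp1 is the reverse.

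The shuttles that return cytosolic NADH to mitochondria share their substrate with lactate dehydrogenase. Of 9 tested shuttle genes, 5 rose (Mdh1, Mdh2, Got1, Slc25a11 and Gpd2) and Gpd1 fell in the libraries labelled Foxk1 overexpression. In Foxk2 overexpression 5 rose (Mdh2, Got1, Slc25a11, Gpd1 and Gpd2) and 4 did not pass. In Foxk1 knockdown Got2 and Slc25a12 rose and 5 fell (Mdh1, Mdh2, Got1, Gpd1 and Gpd2), and in Foxk2 knockdown Got2 and Slc25a12 rose and 6 fell. The shares called were 66.7%, 77.8%, 55.6% and 88.9% in the order labelled Foxk1 overexpression, Foxk1 knockdown, Foxk2 overexpression and Foxk2 knockdown, the third near the 45% of all tested genes. Got1, the cytosolic aspartate aminotransferase, rose by 1.01 ± 0.053 (SE, adjusted p = 4.31e-10) and 0.91 ± 0.065 (SE, adjusted p = 1.88e-08) in the 2 groups labelled overexpression. Gpd1, the cytosolic glycerol 3-phosphate dehydrogenase, fell by 0.83 ± 0.049 (SE, adjusted p = 5.34e-09) in Foxk1 knockdown and by 0.75 ± 0.059 (SE, adjusted p = 1.38e-07) in Foxk2 knockdown. Got2, the mitochondrial counterpart of Got1, rose in both knockdowns, by 0.48 ± 0.047 (SE, adjusted p = 1.12e-06) and 0.71 ± 0.058 (SE, adjusted p = 1.75e-07).

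Of 10 known regulators of these genes, 6 rose and Epas1 fell in the libraries labelled Foxk1 overexpression, and 7 rose and Myc fell in Foxk2 overexpression. In Foxk1 knockdown Hif1a and Arnt rose and 5 fell (Epas1, Mxi1, Esrra, Egln1 and Egln3). In Foxk2 knockdown Hif1a, Arnt and Myc rose and 4 fell (Epas1, Mxi1, Egln3 and Vhl). The shares called were 70% in each comparison but Foxk2 overexpression, where 80% were called. Egln3, a prolyl hydroxylase that is itself a target of hypoxia inducible factors, had the largest change of the 10 in each of the 4 comparisons, among them a fall from 42.6 to 6.16 RPKM in Foxk1 knockdown (-2.69 ± 0.12, SE, adjusted p = 3.84e-10) and a rise from 6.99 to 32.6 RPKM in Foxk2 overexpression (2.14 ± 0.15, SE, adjusted p = 1.13e-08). Epas1, which encodes the hypoxia inducible factor HIF-2 alpha, fell by 0.66 ± 0.052 (SE, adjusted p = 4.96e-08) in the libraries labelled Foxk1 overexpression. In Foxk2 overexpression Epas1 rose, by 0.44 ± 0.064 (SE, adjusted p = 3.72e-05). Esrra, a nuclear receptor of oxidative metabolism, rose in the 2 groups labelled overexpression by 0.47 ± 0.058 (SE, adjusted p = 6.78e-06) and 0.54 ± 0.071 (SE, adjusted p = 1.4e-05). These are transcript levels; hypoxia inducible factors are controlled largely at the protein level, which was not analysed here.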

How the data were processed

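Libraries were grouped by construct and factor from the labels (20 libraries, 8 groups). The authors deposited 1 table of RPKM values for 48440 genes. The submitters' processing notes name the build mm10 and the tools HISAT2 2.1.0, Picard 1.141, featureCounts of Subread 1.5.1 and edgeR; strand is not given in the sources used here. GENCODE M21 gave symbols and coordinates (40606 identifiers matched with version, 48058 without). RPKM times merged exon length gave whole reads within 0.1 read for 100% of nonzero values of version-matched identifiers, hence the depths; for 5807 genes another length was used. In 15981 genes with 0.5 RPKM in at least 2 libraries, log2(RPKM + 0.5) was fitted with 8 group means in limma 3.58.1 (R 4.3.3), two-sided, the prior variance following a trend on mean level. Differences of effects were contrasts in the same model. Within groups, log2 values had a median SD of 0.0391 to 0.0819. The code was tested on simulated counts of genes with a mean of at least 20 reads, a small set of them changed in 1 comparison at a time. That test does not cover genes of lower level or changes in as many genes as here.

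The members, lists and markers were chosen with earlier results of these data known. Named from each list were the up to 3 genes of smallest p in each comparison, and, for each member, the 3 genes of highest r among those with a mean of at least 2 RPKM and no predicted or clone name. Further list genes, named where 5 or fewer moved one way, and the copies Gm5514, Ldha-ps and Ldha-ps2 were chosen after their values were seen. Alternatives were a replicate block, each library left out, voom on whole reads, robust variances, 2 pseudocounts, 2 filters, 2 smaller models and 2 scalings. Chosen after seeing the data were omission of mitochondrial genes, a mean of at least 20 reads, and adding reads of copies. Copies were searched with BLAST+ 2.17.0. Tables were made in Python 3.11.15 with pandas 2.3.3, plots with matplotlib 3.10.9.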

Additional observations from a re-analysis of the deposited data

Results flagged for a closer look

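The effect of the Foxk1 construct and that of the Foxk2 construct on the same gene differed in 6 of 8 tests on Ldha, Ldhb, Slc16a1 and Bsg (adjusted p in limma under 0.05), beside 25.1% of all tested genes for overexpression and 14.3% for knockdown. The Foxk1 and Foxk2 libraries also differ in depth, replicate number and the first principal component, and their part in these differences was not tested. In overexpression the Foxk1 effect minus the Foxk2 effect was -1.28 ± 0.088 for Ldhb (SE, adjusted p = 1.41e-07; the first effect was a fall and the second a rise), -0.30 ± 0.10 for Slc16a1 (SE, adjusted p = 0.0377) and -0.31 ± 0.081 for Bsg (SE, adjusted p = 0.0103), the libraries labelled Foxk1 overexpression standing for Foxk1. The difference for Bsg missed the threshold without replicate 1 of the Foxk2 overexpression control (-0.26, adjusted p = 0.0554).

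In knockdown the difference was -0.66 ± 0.13 for Ldha (SE, adjusted p = 0.00302), 0.43 ± 0.10 for Slc16a1 (SE, adjusted p = 0.00973) and -0.50 ± 0.081 for Bsg (SE, adjusted p = 0.000774). A larger fall with Foxk1 gives a negative value, so Slc16a1 fell more in Foxk2 knockdown and Ldha and Bsg fell more in Foxk1 knockdown. For Slc16a3 the difference was -0.55 ± 0.15 (SE, adjusted p = 0.0236). The gene passed the filter on low values only where it was high, the Foxk1 knockdown control among those groups. The difference is thus not counted above, nor read as a call with no such filter, where the limma adjusted p was 0.0188. It missed the threshold without replicate 1 of Foxk1 knockdown (-0.48, adjusted p = 0.0509), replicate 1 of the Foxk2 knockdown control (-0.47, adjusted p = 0.104), or replicate 1 or 2 of Foxk2 knockdown (adjusted p = 0.0612 and 0.0727).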

How the results depend on the processing

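Of 690 alternative values for 36 results, 655 kept the main reading. For a gene this meant the same direction and side of the threshold. The filters, the smaller models, robust variances and the replicate block left the fold change of a gene as it was. Under those only the side of the threshold could move. For a count of called genes a looser rule was used, that the count stay near the main one. Ldha, Ldhb and Slc16a1 kept direction and side in all 4 comparisons under each alternative run. Bsg in the libraries labelled Foxk1 overexpression turned to -0.13 under quantile normalization. The difference of the Ldha effects in overexpression, which was never called, turned to -0.012 with median-ratio scaling and -0.22 with quantile normalization. Leave-one-out values ranged from -0.076 to 0.13 for that difference, 0.033 to 0.16 for Bsg in the libraries labelled Foxk1 overexpression, 0.25 to 0.45 for Slc16a3 in Foxk2 overexpression, and -0.20 to -0.17 for Bsg in Foxk2 knockdown. For the differences of effects in overexpression they ranged from -0.36 to -0.21 for Slc16a1 and -0.37 to -0.24 for Bsg. In knockdown they ranged from 0.40 to 0.46 for Slc16a1 and -0.62 to -0.47 for Slc16a3. Genes called for the knockdown difference numbered 2287, and 1328 to 2383 without 1 library (1328 without replicate 2 of the Foxk2 knockdown control, 1388 without replicate 1 of Foxk2 knockdown). With the 2 groups fitted alone the Slc16a3 call in Foxk2 overexpression (0.35), and with no filter the Slc16a1 difference in overexpression (-0.30), were lost, as were Bsg in Foxk2 knockdown with no filter (-0.19) or without mitochondrial genes (-0.16) and the Bsg knockdown difference under quantile normalization (-0.20). Replicate numbers did not pair the libraries (correlations of same-numbered deviations -0.0858 to 0.0331). With a replicate block, called genes numbered 7335, 5350, 6827 and 4960, and the differences for Slc16a1 (-0.30, adjusted p = 0.105; 0.43, adjusted p = 0.0516) and Slc16a3 in knockdown (-0.55, adjusted p = 0.0512) missed the threshold. The cause was not tested. Leaving out a Foxk2 library assumes that the lone one varies like the other groups. Slc16a3, at 19 to 94 reads, is limited by depth.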

Other observations

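Hcar1, the receptor through which lactate restrains lipolysis in fat cells, fell from 19.6 ± 0.498 to 10.5 ± 0.125 RPKM in Foxk1 knockdown (SD, n = 3 and 3; -0.87 ± 0.040 on the log2 scale, SE, limma adjusted p = 5.58e-10) and from 3.06 ± 0.132 to 1.30 ± 0.0947 RPKM in Foxk2 knockdown (SD, n = 2 and 2; -0.98 ± 0.049, SE, adjusted p = 1.43e-09). It rose from 4.50 to 5.33 RPKM in the libraries labelled Foxk1 overexpression (0.22 ± 0.040, SE, adjusted p = 0.00026) and from 1.54 to 1.997 RPKM in Foxk2 overexpression (0.29 ± 0.049, SE, adjusted p = 0.000154). Its control means ran from 1.54 to 19.6 RPKM. Emb, which encodes embigin, a chaperone of monocarboxylate carriers, went the other way: it rose by 0.66 ± 0.11 (SE, adjusted p = 0.000219) and 0.58 ± 0.13 (SE, adjusted p = 0.0032) in the 2 knockdowns and fell by 0.44 ± 0.11 (SE, adjusted p = 0.00364) in the libraries labelled Foxk1 overexpression. Its value in Foxk2 overexpression did not pass (-0.19, adjusted p = 0.292). Nptn, which encodes neuroplastin, lay between 26.6 and 42.1 RPKM. It fell by 0.21 ± 0.036 (SE, adjusted p = 0.000152) in the libraries labelled Foxk1 overexpression and rose by 0.14 ± 0.036 (SE, adjusted p = 0.00739) in Foxk1 knockdown. Its values in Foxk2 overexpression (0.10, adjusted p = 0.0712) and Foxk2 knockdown (0.095, adjusted p = 0.111) did not pass.

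Of 6 tested SLC16 carriers outside the members, 2 rose (Slc16a4 and Slc16a10) and 2 fell (Slc16a11 and Slc16a13) in the libraries labelled Foxk1 overexpression. These genes moved likewise in Foxk2 overexpression. None passed in either knockdown by limma, where none had an unadjusted p under 0.05 either. The shares called were 66.7%, 0%, 66.7% and 0% in the order labelled Foxk1 overexpression, Foxk1 knockdown, Foxk2 overexpression and Foxk2 knockdown. Of all tested genes, 47.8%, 35.9%, 45% and 33.7% were called in that order. The neighbouring genes Slc16a11 and Slc16a13 fell by 0.83 ± 0.15 (SE, adjusted p = 0.000264) and 0.64 ± 0.084 (SE, adjusted p = 1.36e-05) in the libraries labelled Foxk1 overexpression. They fell by 1.09 ± 0.18 (SE, adjusted p = 0.000156) and 1.09 ± 0.10 (SE, adjusted p = 4.32e-07) in Foxk2 overexpression. Slc16a10, an aromatic amino acid carrier, rose by 0.49 ± 0.10 (SE, adjusted p = 0.00071) and 0.53 ± 0.12 (SE, adjusted p = 0.00218) in the same order. It lay at only 0.169 to 0.561 RPKM, close to the filter of 0.5 RPKM. Its highest group means, 0.51 and 0.49 RPKM, were those of these 2 groups, so its calls are not independent of the filter. Neither are the 2 shares of 66.7%, which count it. The other 5 carriers of the list were at most 0.379 RPKM in any library. Ldhd, the mitochondrial D-lactate dehydrogenase, was at 0.261 to 1.47 RPKM; it fell by 0.33 ± 0.089 (SE, adjusted p = 0.00615) in the libraries labelled Foxk1 overexpression and rose by 0.27 ± 0.089 (SE, adjusted p = 0.0281) in Foxk1 knockdown. Ldhd fell by 0.30 ± 0.11 (SE, adjusted p = 0.044) in Foxk2 knockdown. The Ldha pseudogene Ldha-ps was at 0 to 0.12 RPKM in the Foxk1 libraries and at 3.23 to 10.8 RPKM in the Foxk2 libraries. Another, Ldha-ps2, was at 0.553 to 5.64 RPKM in the Foxk1 libraries and 4.66 to 12.96 RPKM in the Foxk2 libraries, with overlapping ranges.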
